A study of Homo sapiens with 6 samples.

Results

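The AP-1 family of transcription factors was taken here as 10 genes by symbol: FOS, FOSB, FOSL1, FOSL2, JUN, JUNB, JUND, ATF3, MAFF and EGR1. All 10 were found, each as 1 row of the 60589 genes in the deposited table. RNA came from SNU449, an established line from a human hepatocellular carcinoma, at day 3 of treatment with either a control siRNA (siControl, n = 3 libraries) or an siRNA against MAD2L1 (siMAD2L1, n = 3 libraries). No further genetic change or drug is named for either group. The treatment field reads siMAD2L1, siMAD2L2 and siMAD2L3 for replicates 1, 2 and 3, while each title names MAD2L1, and the titles were used. MAD2L1 holds back anaphase until chromosomes are attached to the spindle, and the comparison asks which transcripts differ once its mRNA is lowered.

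AP-1 is a dimer of basic leucine zipper (bZIP) proteins. A JUN protein pairs with itself or, more stably, with a FOS protein, while FOS proteins need a JUN partner to bind DNA. The dimer reads the TPA response element (TRE) and, with ATF partners, the cyclic AMP response element (CRE). FOS, FOSB, JUN, JUNB, ATF3, MAFF and EGR1 are known as immediate early or stress-induced genes, switched on by growth factors, cytokines and stress through MAP kinases. In liver, JUN is known for roles in hepatocyte proliferation, regeneration and tumour formation. EGR1 is a zinc finger protein and no bZIP factor, and is grouped here because it is induced alongside FOS.

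The promoters of the 5 genes that passed the test below are shown first. Counting a CRE variant added later, each holds letters of an element known to be bound by ATF or serum response factors. Whether this bears on the calls was not tested. RefSeq windows (GRCh38.p14) from 250 bases before to 50 bases after the transcript start were searched on both strands for 5 motifs. These were the TRE (TGACTCA), the CRE (TGACGTCA), the CRE variant TGACATCA, an EGR site (GCGNGGGCG) and the serum response element. The CRE variant was added after the windows were seen, and without it JUN and ATF3 had no match. Other variants of the CRE were not searched, so the matches cannot set called genes apart from those not called. Windows were held for 9 of the 10 genes (11 windows, with 2 starts each for ATF3 and MAFF). Each stretch below runs 5′ to 3′ on the gene's own strand ahead of the RefSeq start, for 30 bases in JUN and MAFF and 100 bases in the others, and capitals mark the CRE, the CRE variant or the serum response elements:
JUN (chr1:58784096-58784125, minus strand): aggccttggggTGACATCAtgggctatttt
ATF3 (chr1:212565257-212565356, plus strand): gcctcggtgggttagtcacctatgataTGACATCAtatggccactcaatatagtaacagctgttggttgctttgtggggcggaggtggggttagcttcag
MAFF (chr22:38201929-38201958, plus strand): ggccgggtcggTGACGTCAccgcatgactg
JUND (chr19:18281753-18281852, minus strand): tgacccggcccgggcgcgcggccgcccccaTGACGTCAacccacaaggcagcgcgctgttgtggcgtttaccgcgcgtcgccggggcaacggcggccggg
EGR1 (chr5:138465329-138465428, plus strand): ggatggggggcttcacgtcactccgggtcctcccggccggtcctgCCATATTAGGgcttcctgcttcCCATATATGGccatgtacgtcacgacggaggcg

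JUN held the CRE variant at -67 to -60 from the start, and ATF3 held the same 8 letters at -123 to -116 of its upstream start. MAFF held a CRE at -54 to -47 of its upstream start and JUND a CRE at -200 to -193. EGR1 held a pair of serum response elements, at -105 to -96 and -83 to -74, and an EGR site at -198 to -190. FOSL2 held a TRE just after its start, at 5 to 11. None of the 5 motifs was matched in the windows of FOS, FOSB and JUNB or at the downstream starts of ATF3 and MAFF. Sequence more than 250 bases before a start was not searched, so elements lying there would be missed. Among all 35116 windows of the table, 1.85% held a CRE, 2.61% the CRE variant, 4.95% a TRE, 9.43% an EGR site and 1.29% a serum response element. Either a CRE or the CRE variant was held by 4.44% of these windows. A match describes letters only, and the data do not tell which start was used. GENCODE 29 also lists transcripts of JUN and MAFF that begin further upstream, so that the printed stretches of these genes lie in their first exon there.

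**Figure D1:**
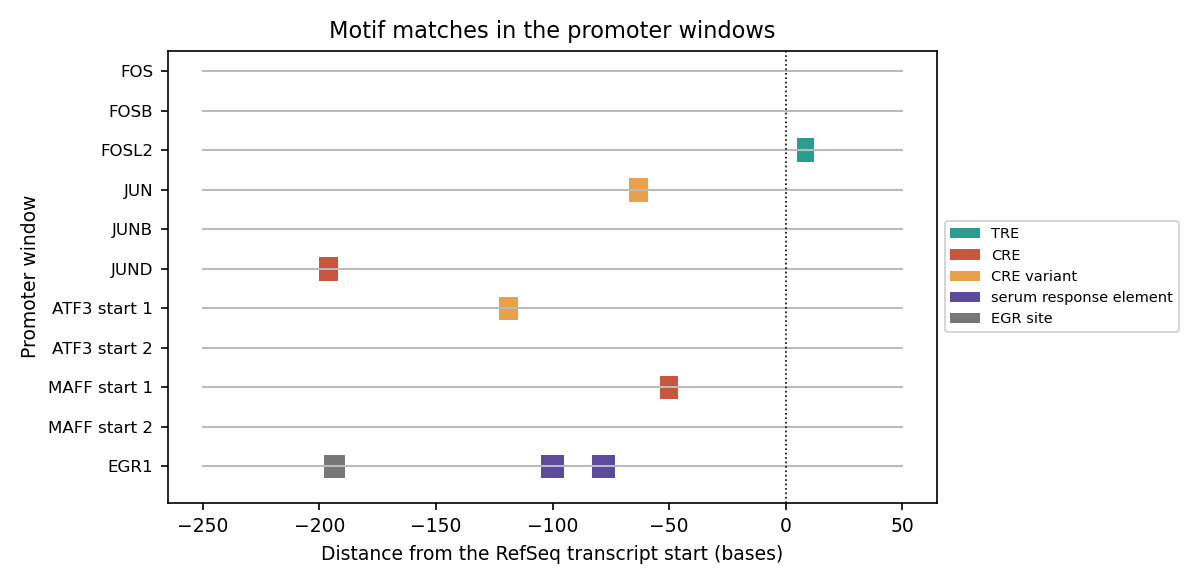
Position of each motif match (coloured box) in the 11 RefSeq promoter windows of 9 genes, with the distance from the transcript start in bases on the horizontal axis and a grey line for each window searched. Boxes lie in the windows of JUN, JUND, EGR1, FOSL2 and the upstream starts of ATF3 and MAFF, and the other windows are empty.

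Knockdown was read from MAD2L1 itself, which measured 14.5, 13.7 and 13.9 TPM in siControl and 4.47, 0.795 and 2.40 TPM in siMAD2L1 replicates 1, 2 and 3 (log2 fold change -2.22, SE 0.357, limma adjusted p = 0.0105). All knockdown libraries lay below all controls, though its call ended without siControl replicate 1, 2 or 3 (limma adjusted p = 0.0597, 0.0547 and 0.0572). TPM is transcripts for every 1000000 counted, an abundance scaled for transcript length and to a fixed total, so levels of different genes can be compared, while the depth behind a value is unknown. All columns summed to 1000000. The share of TPM from mitochondrially encoded genes was lower in siMAD2L1, at 9.21% to 10.9% against 15.2% to 15.3%. Hepatocyte markers were mostly absent: of 11, 6 had a mean under 1 TPM, among them ALB, and the epithelial keratin genes KRT8 and KRT18 made up most of the signal. The summed TPM of the 11 markers was 423 to 434 in siControl and 288 to 313 in siMAD2L1. The sum of 7 leukocyte markers was 69.9 to 77.3 TPM in siControl and 129 to 150 TPM in siMAD2L1, the rise coming from the lysosomal gene CD68 alone, while the defining marker PTPRC stayed at or under 0.0600 TPM and CD3E at 0 in every library. CD14 and LYZ, the other tested leukocyte markers, were not called and had log2 fold changes of -0.89 and -0.20. The sum of fibroblast and stellate cell markers was lower in siMAD2L1, at 338 to 373 against 509 to 594 TPM, mostly from the collagen gene COL1A2. Of these 7 markers 4 were tested, while LUM, DCN and PDGFRB had means under 1 TPM, LUM at 0 in every library. Endothelial markers summed to at most 1.08 TPM. All libraries came from the same cell line. Bulk RNA cannot tell fewer expressing cells from less RNA per cell, and the part of these shifts in the results below was not tested.

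Of the 10 genes, 5 rose in siMAD2L1: ATF3, EGR1, JUN, MAFF and JUND. Changes are log2 fold changes of TPM + 1, siMAD2L1 minus siControl, from limma-trend over 14790 genes with a mean of at least 1 TPM, and a gene was called at a Benjamini-Hochberg adjusted p under 0.05. The filter kept 9 of the 10 genes and left out FOSB. All 9 had a positive log2 fold change, with a median of 0.53 against -0.08 over all genes tested. By limma none was called lower, and at an unadjusted p under 0.05 the counts were 6 higher and 0 lower, against 8.90% higher and 17.4% lower of all genes tested. Over all genes tested, 9.78% were called in either direction and 3.55% were called higher. All siMAD2L1 libraries lay above all siControl libraries for 7 of the 10 genes, against 11.3% of all genes tested. With 3 libraries against 3, an exact two-sided permutation test of a single gene cannot go below p = 0.1, which it gave for these 7.

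The 3 JUN genes encode the obligate partners of the FOS proteins, and in siControl their levels stood at the 93.8 (JUN), 93.6 (JUNB) and 90.2 (JUND) percentile of all genes tested. JUN (ENSG00000177606, chromosome 1, 58780788 to 58784327, minus strand, GRCh38) is annotated as a single exon. It measured 143, 157 and 137 TPM in siControl and 239, 226 and 228 TPM in siMAD2L1. Every siMAD2L1 value lay well above the highest control, and the siMAD2L1 libraries differed little among themselves. The mean rose from 145 ± 10.5 to 231 ± 7.03 TPM (SD, n = 3 each), a log2 difference of 0.67 (SE 0.0770, limma adjusted p = 0.00340).

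JUND (ENSG00000130522, chromosome 19, 18279760 to 18281622, minus strand), the JUN protein best known for steady expression in resting cells, measured 91.7, 91.2 and 101 TPM in siControl and 124, 150 and 131 TPM in siMAD2L1. The groups did not overlap, and replicate 2 was the highest of the knockdown libraries. The fitted rise was 0.50 on the log2 scale (SE 0.0942, limma adjusted p = 0.0175). The call ended without siControl replicate 1, 2 or 3 (limma adjusted p = 0.0889, 0.0712 and 0.0548) and without siMAD2L1 replicate 3 (0.0587), at log2 fold changes between 0.48 and 0.55. JUND and FOSL2 carry identifiers joined to an assembled transcript model, so sequence outside the annotated gene may enter their values.

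JUNB (ENSG00000171223, chromosome 19, 12791496 to 12793315, plus strand), often described as a weaker activator that can oppose JUN, measured 139, 142 and 145 TPM in siControl and 153, 170 and 160 TPM in siMAD2L1. These values did not overlap either, but they were close, with a log2 fold change of 0.18 (95% interval 0.01 to 0.34, limma adjusted p = 0.165). It was therefore not called. JUNB overlaps HOOK2 on the opposite strand, which measured 10.4 to 17.4 TPM, and the strand setting of the counting is not given in the sources used here.

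In siControl, JUN and JUNB stood level, and in siMAD2L1 JUN stood above JUNB in every library. The log2 difference JUN minus JUNB was 0.04, 0.15 and -0.09 in the siControl libraries and 0.65, 0.41 and 0.50 in the siMAD2L1 libraries. The mean difference moved by 0.49 (exact two-sided permutation p = 0.1, Benjamini-Hochberg adjusted p = 0.15 over 3 pairs). The pairs were compared after the values were seen. An exact permutation test of 3 libraries against 3 cannot go below p = 0.1. JUND minus JUNB moved by 0.33 (exact permutation p = 0.1, adjusted 0.15), and JUN minus JUND by 0.16, with groups that overlapped (exact permutation p = 0.4, adjusted 0.4). Of the summed TPM of the 3 JUN genes, JUN took 38.1% ± 2.28 in siControl and 43.9% ± 2.48 in siMAD2L1, while JUNB took 37.2% ± 0.777 and 30.5% ± 0.798 (SD, n = 3). The JUND share was 24.8% ± 1.51 and 25.6% ± 1.77.

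The FOS genes supply the other side of the dimer, and none of the 4 was called. FOSL1 (ENSG00000175592, chromosome 11, 65892049 to 65900573, minus strand), which encodes FRA-1, a FOS protein typical of invasive carcinoma cells, had the highest siControl mean of all 10 genes. The siControl means of JUN and JUNB lay within its spread. FOSL1 measured 147, 158 and 141 TPM in siControl and 152, 179 and 206 TPM in siMAD2L1. Replicate 1 lay within the control range and replicates 2 and 3 above it. On the log2 scale the difference was 0.26 (95% interval -0.01 to 0.52, limma adjusted p = 0.205). Without siMAD2L1 replicate 1, FOSL1 passed, at 0.37 (limma adjusted p = 0.0333), and with library weights at 0.43 (0.00458).

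FOSL2 (ENSG00000075426, chromosome 2, 28392448 to 28417312, plus strand), which encodes FRA-2, measured 53.4, 57.2 and 49.8 TPM in siControl and 58.3, 53.0 and 56.8 TPM in siMAD2L1. The groups overlapped throughout, with a log2 fold change of 0.07 (95% interval -0.14 to 0.27, limma adjusted p = 0.675). FOS (ENSG00000170345, chromosome 14, 75278774 to 75282230, plus strand), the serum-induced founding member, stood far lower, at 0.868, 1.864 and 1.164 TPM in siControl and 2.38, 2.49 and 1.98 TPM in siMAD2L1. All knockdown values lay above the controls, though siControl replicate 2 came close to the lowest of them. The interval was wide (log2 fold change 0.53, 95% interval -0.01 to 1.07, limma adjusted p = 0.195). FOSB (ENSG00000125740, chromosome 19, 45467995 to 45475179, plus strand), a further serum-induced member, was below 1 TPM in every library, at 0.275, 0.655 and 0.366 TPM in siControl and 0.585, 0.850 and 0.603 TPM in siMAD2L1. Those values overlapped (exact permutation p = 0.3), and FOSB also overlaps ERCC1 on the opposite strand, a gene at 107 to 122 TPM.

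FOSL1 and FOSL2 together made up nearly all FOS-type mRNA. FOSL1 alone was 72.9% ± 0.356 of the summed TPM of the 4 FOS genes in siControl and 74.96% ± 3.31 in siMAD2L1, FOSL2 26.2% ± 0.324 and 23.8% ± 3.15, and FOS 0.631% ± 0.213 and 0.974% ± 0.200 (SD, n = 3). The FOS sum was 201, 218 and 192 TPM in siControl and 213, 235 and 265 TPM in siMAD2L1, so the groups overlapped. The JUN sum was 373, 390 and 383 TPM in siControl and 515, 546 and 519 TPM in siMAD2L1. JUN-type mRNA thus exceeded FOS-type mRNA in all 6 libraries, by ratios of 1.85, 1.79 and 1.99 in siControl and 2.42, 2.32 and 1.96 in siMAD2L1. The ratio of siMAD2L1 replicate 3, where FOSL1 was highest, lay within the siControl range.

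**Figure D2:**
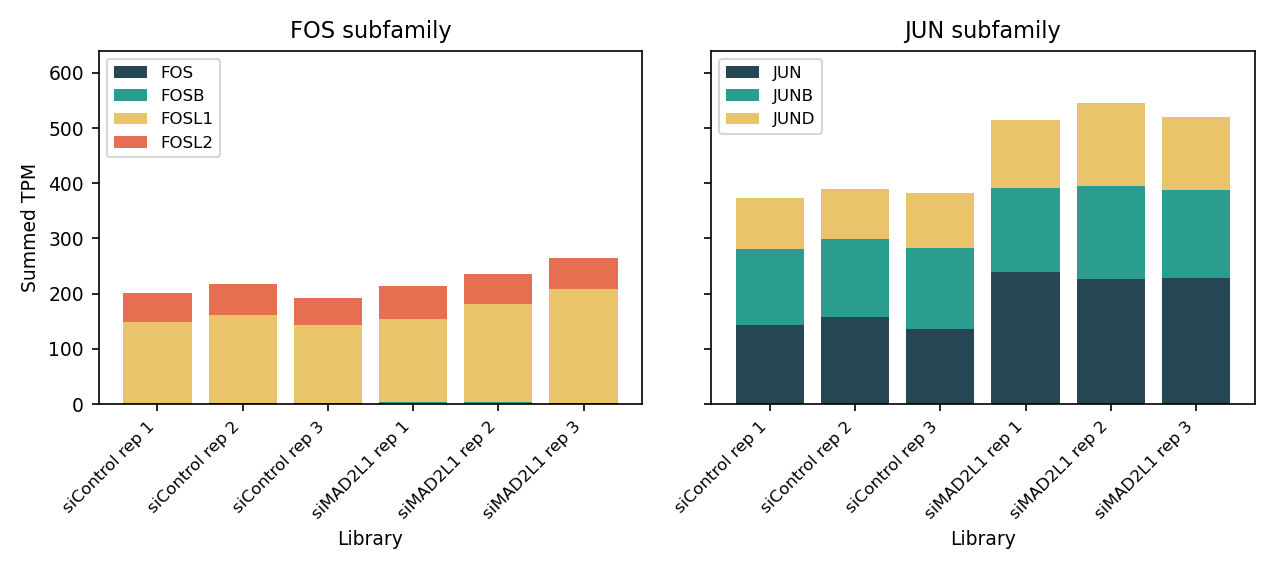
Summed TPM of the FOS genes (left) and the JUN genes (right) in each of the 6 libraries, stacked by gene. JUN-type bars stand at 373 to 390 TPM in siControl and 515 to 546 TPM in siMAD2L1, while FOS-type bars overlap between the groups and consist almost wholly of FOSL1 and FOSL2.

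ATF3 and MAFF are bZIP relatives that rise in stress. ATF3 (ENSG00000162772, chromosome 1, 212565334 to 212620777, plus strand) encodes a factor that can repress or, as a partner of JUN, activate. Its fitted log2 fold change was the largest of the 9 genes on the TPM + 1 scale, while the fold of means was larger for EGR1. It measured 18.5, 19.1 and 16.4 TPM in siControl and 45.7, 33.9 and 33.1 TPM in siMAD2L1. The groups were far apart, and replicate 1 stood above the other knockdown libraries. The mean rose 2.09-fold, from 18.0 ± 1.43 to 37.6 ± 7.06 TPM (SD over 3 libraries each), or by 1.01 on the log2 scale (SE 0.143, limma adjusted p = 0.00668).

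MAFF (ENSG00000185022, chromosome 22, 38200767 to 38216511, plus strand) encodes a small MAF protein, which lacks an activation domain and binds DNA as a dimer with itself or with CNC factors such as NRF2. It measured 28.5, 29.05 and 26.1 TPM in siControl and 45.8, 43.6 and 42.9 TPM in siMAD2L1. The spread within each group was small beside the gap between them (log2 fold change 0.64, SE 0.0896, limma adjusted p = 0.00644). MAFF overlaps PLA2G6 on the opposite strand, at 2.04 to 3.97 TPM.

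EGR1 (ENSG00000120738, chromosome 5, 138465490 to 138469315, plus strand), whose zinc fingers bind GC-rich sites, was a low transcript that rose 2.24-fold. It measured 2.86, 2.61 and 2.59 TPM in siControl and 6.81, 5.86 and 5.41 TPM in siMAD2L1. Every knockdown library lay above every control, and replicate 1 was the highest (log2 fold change 0.93, SE 0.162, limma adjusted p = 0.0142). The call ended without siControl replicate 1, 2 or 3 (limma adjusted p = 0.0643, 0.0583 and 0.0672), at log2 fold changes of 0.96, 0.91 and 0.91.

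**Figure D3:**
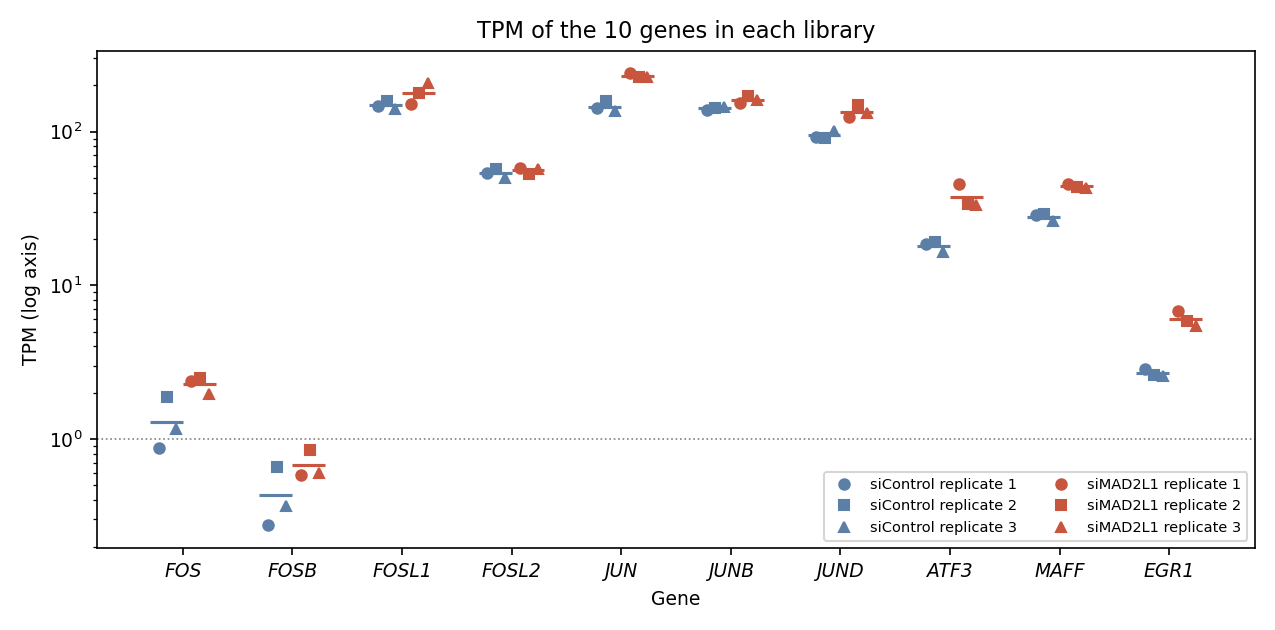
TPM of each gene in each library on a log axis, with blue points for siControl, red points for siMAD2L1, 1 symbol shape per replicate number and a line at each group mean; the dotted line marks 1 TPM. The red points of ATF3, EGR1, JUN, JUND, MAFF, JUNB and FOS lie above all blue points, and those of FOSL1, FOSL2 and FOSB overlap with them.

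In siControl the order of levels ran from FOSL1 (149 ± 8.78 TPM), JUN (145 ± 10.5) and JUNB (142 ± 3.16) to JUND (94.7 ± 5.55), FOSL2 (53.5 ± 3.70), MAFF (27.9 ± 1.54), ATF3 (18.0 ± 1.43), EGR1 (2.68 ± 0.151), FOS (1.30 ± 0.511) and FOSB (0.432 ± 0.198; SD, n = 3 each). The leading 3 were separated by less than their spread, and the steps below them exceeded it. In siMAD2L1 JUN led at 231 ± 7.03 TPM, followed by FOSL1 at 179 ± 26.9, JUNB at 161 ± 8.54 and JUND at 135 ± 13.6. FOSL1 and JUNB lay within the spread of FOSL1. MAFF (44.1 ± 1.503 TPM) and ATF3 (37.6 ± 7.06 TPM) came within the spread of ATF3, below FOSL2 (56.0 ± 2.74 TPM) and above EGR1 (6.02 ± 0.712 TPM), FOS (2.28 ± 0.271 TPM) and FOSB (0.679 ± 0.148 TPM).

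The knockdown libraries did not move alike across the genes. Replicate 1, which kept the most MAD2L1 mRNA, had the largest log2 change of ATF3 (1.30 against 0.88 and 0.84 in replicates 2 and 3), EGR1 (1.08 against 0.90 and 0.80), JUN (0.72 against 0.64 and 0.65) and MAFF (0.70 against 0.63 and 0.60). It had the smallest change of FOSL1 (0.03 against 0.27 and 0.47), JUND (0.38 against 0.66 and 0.47) and JUNB (0.10 against 0.25 and 0.17). Replicate 1 is also the library whose treatment field names MAD2L1. A lone knockdown library gives no spread under knockdown, so the values of replicate 1 are effect sizes only.

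**Figure D4:**
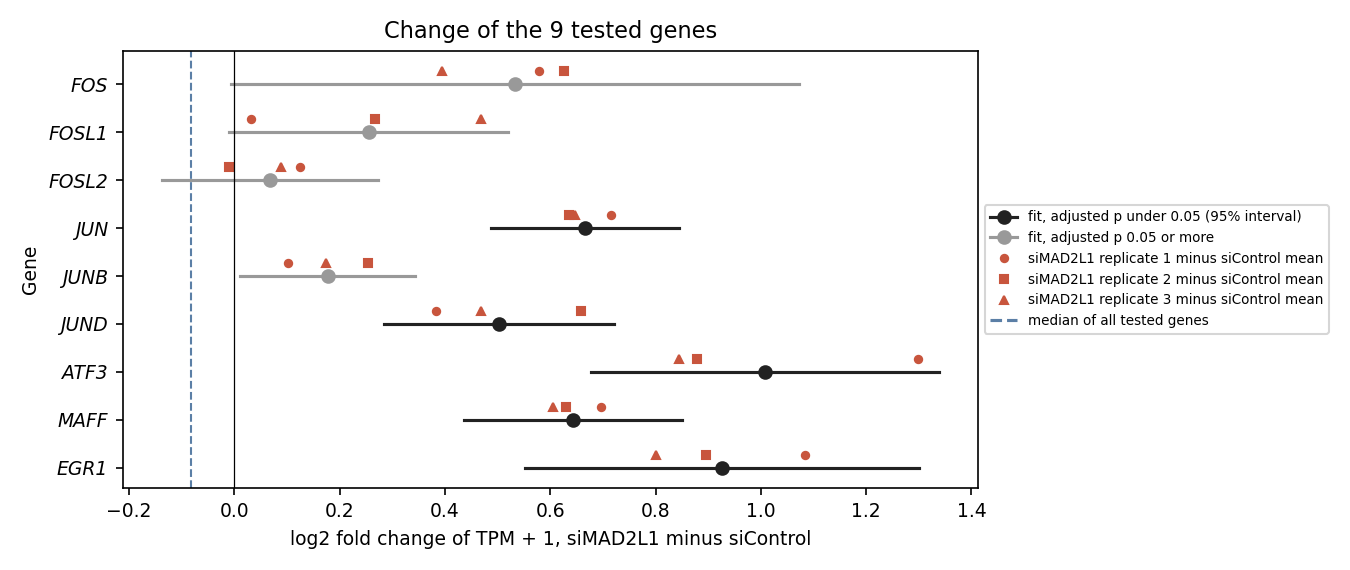
Log2 fold change of TPM + 1 (siMAD2L1 minus siControl) for the 9 tested genes, with the fitted value and its 95% interval in black where the adjusted p was under 0.05 and grey where not, and red symbols for each siMAD2L1 library against the siControl mean. ATF3, EGR1, JUN, MAFF and JUND lie between 0.50 and 1.01, and the dashed line at -0.08 is the median of all tested genes.

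The 5 calls held under every other scaling tried, all of which started from the same TPM values. After mitochondrial genes and the 20 highest genes were taken out of the TPM total, the log2 fold changes were 0.97 for ATF3, 0.93 for EGR1, 0.62 for JUN, 0.60 for MAFF and 0.46 for JUND, and all 5 passed. With a trend on transcript length removed they were 1.12, 1.02, 0.75, 0.73 and 0.61, and all 5 passed. The share of all tested genes called higher was 3.04% in the former setting and 5.00% in the latter. JUN and JUNB are single-exon genes, and of 181 tested single-exon protein-coding genes 14 rose and 17 fell, at a median of -0.05. The share that rose in this class was 7.73%, against 3.93% of protein-coding genes and 3.55% of all genes tested.

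Short mRNA life is a known trait of this family, and the AU-rich pentamer ATTTA in the 3′ UTR is its classic mark. In the longest annotated 3′ UTR of each gene (GENCODE 29), FOS held 5 pentamers (6.20 per kb), JUNB 2 (4 per kb), JUN 3 (2.33 per kb), ATF3 3 (2.45 per kb) and MAFF 4 (2.45 per kb). EGR1 and JUND held 1 each (0.810 and 1.47 per kb). The median over 11907 tested protein-coding genes was 1.62 per kb, and 6 of the 10 genes lay above it. Both genes that rose, such as EGR1 and JUND, and genes that were not called, such as FOSL1, lay below it. The window of 30 bases with the most pentamers was taken for FOS, JUN, ATF3, EGR1 and MAFF only. Those of FOS and MAFF are shown, with pentamers in capitals, because their pentamers overlap:
FOS (chr14:75282047-75282076, plus strand): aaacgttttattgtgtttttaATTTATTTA
MAFF (chr22:38216390-38216419, plus strand): aaatattgcccggctcctagaATTTATTTA

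Genes that AP-1 is known to drive were read from a list of 25, of which 23 were tested. Of these 13 rose (56.5%, against 3.55% of all genes tested), 1 fell and 9 did not pass, with a median log2 fold change of 0.77 against -0.08 over all genes. The largest rises were IL1B, the inflammatory cytokine (1.61, SE 0.173, from 25.8 to 82.9 TPM), MMP1, the interstitial collagenase and a textbook TRE-driven gene (1.51, SE 0.145, from 105 to 305 TPM), F3, tissue factor (1.51, SE 0.173, from 51.1 to 149 TPM), and CXCL8, a neutrophil chemokine (1.31, SE 0.169, from 219 to 556 TPM). Their limma adjusted p lay between 0.00172 and 0.00498. The gene that fell, named after its value was seen, was PLAU, the urokinase plasminogen activator (-0.72, SE 0.0890, limma adjusted p = 0.00430). A pair of the tested genes reached a mean of 1 TPM only through siMAD2L1 and so had to be higher there: MMP3, one of the 13 that rose (2.73 against 0.591 TPM in siControl), and MMP10, whose value is the list's median and which did not pass (2.01 against 0.748 TPM). This list and those below were also chosen with earlier results of these data known. The count and the median are therefore descriptions. Many of these genes also answer to NF-kB. With a library left out, between 11 and 13 of the list rose.

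**Figure D5:**
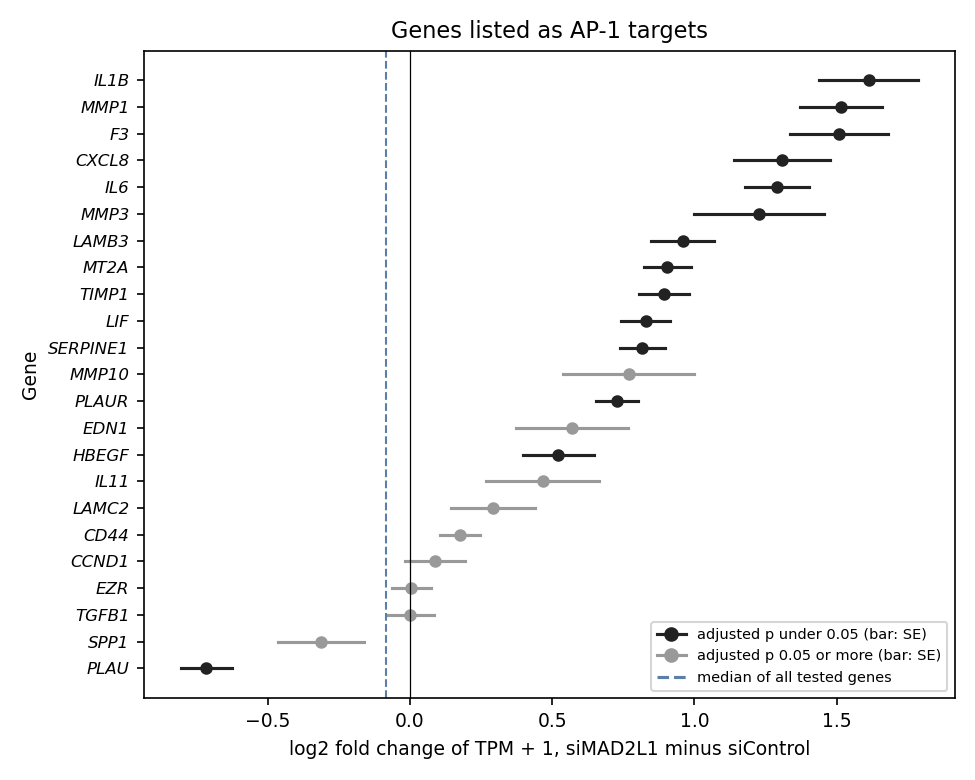
Log2 fold change of TPM + 1 (siMAD2L1 minus siControl) with its SE for the 23 tested genes of the AP-1 target list, black where the adjusted p was under 0.05. IL1B, MMP1, F3 and CXCL8 lie above 1.3, PLAU lies at -0.72, and the dashed line is the median of all tested genes at -0.08.

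Other immediate early genes were read from a list of 26, of which 20 were tested. There 8 rose (40.0%, against 3.55% of all genes tested) and 12 did not pass, at a median of 0.46. As this list too was chosen with earlier results known, these values are descriptions. MCL1, a survival factor of the BCL2 family (1.22, SE 0.115), KLF6, a Krüppel-like factor (1.10, SE 0.128), CSRNP1, a nuclear protein induced by axin (1.03, SE 0.143), and IER2, a serum-induced nuclear protein (0.96, SE 0.0904), rose most, with limma adjusted p between 0.00166 and 0.00644. The siblings of EGR1, named here outside the rule for named genes, were nearly silent: EGR2, EGR3 and EGR4 reached at most 0.180, 0.127 and 0.107 TPM in any library.

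Of the wider bZIP relatives 18 were tested. There 2 rose (11.1%, against 3.55% of all genes tested) and 16 did not pass, at a median of 0.17: CEBPB, a C/EBP factor of the acute phase response (0.47, limma adjusted p = 0.0212), and MAFK, a small MAF protein like MAFF (0.46, limma adjusted p = 0.0231). Both lost their calls in 5 of the 6 fits with a library left out (limma adjusted p up to 0.0939 and 0.109).

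Upstream, the mRNAs of the kinases that feed AP-1 moved in few cases. In the MAP kinase list 1 of 22 tested genes rose (4.55%, near the 3.55% of all genes), MAP2K1, which encodes the ERK kinase MEK1 (0.49, limma adjusted p = 0.0128), at a list median of 0.04. Its call ended without siControl replicate 1 or 3 (limma adjusted p = 0.0576 and 0.0590). Among 11 genes for serum response factor, its cofactors and AP-1 or EGR coregulators 1 rose (9.09%), NAB2, a corepressor that binds EGR1 (0.39, limma adjusted p = 0.0265), at a median of 0.14. NAB2 lost its call in 5 of the 6 fits with a library left out (limma adjusted p up to 0.108). These values are mRNA levels and do not measure kinase activity.

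Of 15 genes for turnover of AP-1 proteins and mRNAs, 2 rose (13.3%, against 3.55% of all genes tested) and 13 did not pass, at a median of -0.13. ZFP36 also stands in the immediate early list. ZFP36 (tristetraprolin), which binds AU-rich elements and speeds mRNA decay, rose from 20.1 ± 2.24 to 34.6 ± 2.20 TPM (SD over 3 libraries), by 0.75 on the log2 scale (limma adjusted p = 0.00818). ZFP36L1, its relative, rose from 174 ± 11.1 to 241 ± 19.9 TPM (0.46, limma adjusted p = 0.0172). ZFP36 lost its call without siControl replicate 1 (limma adjusted p = 0.0509), and ZFP36L1 without siControl replicate 1 or 3 or siMAD2L1 replicate 3 (0.0860, 0.0813 and 0.0541).

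The genes most like the leading pair, FOSL1 and JUN, were found by the root mean square difference of log2(TPM + 1), centred on the siControl mean, over the 6 libraries. Nearest to JUN was MAFF, itself one of the 10 (0.0373), then SIK1B (0.0378), a kinase gene with a near-identical copy, and EIF4E2 (0.0419), a cap-binding protein gene. Nearest to FOSL1 were ZNF517 (0.0461), KLHDC3 (0.0499) and DPP3 (0.0527), none of them called. With 6 libraries such likeness is a description only.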

How the data were processed

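RNA of 6 SNU449 libraries (3 siControl, 3 siMAD2L1) was measured by sequencing. The deposited table holds TPM made by the authors, and its name and column sums are the source for the unit. The tools fastp, HISAT2 and DESeq2 1.16.1 and the build hg38 are named per the submitters' processing notes. Not given in the sources used here were the quantifier, annotation and strand setting, and depth is unknown. The columns named NC were read as siControl. The labels do not say whether replicates are separate cultures, so p-values reflect only how these libraries vary, which may be technical.

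Genes with a mean of at least 1 TPM were kept, log2(TPM + 1) was taken, and limma 3.58.1 (R 4.3.3) with an intensity trend was fitted to both groups without covariates, with Benjamini-Hochberg adjustment over all genes tested. The script was tested on simulated data. Positions, lengths and 3′ UTRs came from GENCODE 29 (GRCh38), and promoters from RefSeq. The genes and the 10 lists were chosen with earlier results of these data known. Named genes were the 10 genes, MAD2L1, up to 4 called genes per list by size of change (or the 2 most abundant where none was called), and the nearest profiles. For the endothelial list, that rule gave PECAM1 and CDH5, at up to 0.977 and 0.0820 TPM. The hepatocyte list had 3 called genes, TF (log2 fold change -0.97), KRT18 (-0.55) and KRT8 (-0.44). Among leukocyte markers CD68 was called (1.05), and among fibroblast markers COL1A2 (-0.74).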

Additional observations from a re-analysis of the deposited data

How the results depend on the processing

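The alternatives were other pseudocounts, filters, scalings, variance models, library weights, a replicate block, a stricter threshold and each library left out. None of the 9 tested genes changed direction under any of them. ATF3, JUN and MAFF passed under every one. The number of genes called higher among the 10 was 3 at an adjusted p of 0.01 and between 3 and 6 with a library left out, the lowest without siControl replicate 1, 2 or 3. It was 4 at a mean TPM of at least 5, where EGR1 was no longer tested, and 4 without a trend, where JUND did not pass (limma adjusted p = 0.0573). With library weights it was 7, as FOSL1 and JUNB (limma adjusted p = 0.0209) joined. Of all genes tested, 3.55% were called higher in the main fit, 1.04% at an adjusted p of 0.01 and 0.933% to 4.84% with a library left out. That share was 5.63% at a mean TPM of at least 5, 2.01% without a trend and 10.2% with library weights.

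Over all genes, 1446 were called, against 727 without a filter, 952 without a trend, 4860 with library weights, 868 with a replicate block, 359 at an adjusted p of 0.01, and 326 to 2422 with a library left out. Of all calls 63.7% were lower (525 higher, 921 lower). That share was 52.5% with upper-quartile scaling, 50.5% with quantile normalization, 65.8% over protein-coding genes, 73.3% when mitochondrial genes and the 20 highest were dropped before scaling, and 42.7% with the length trend removed. No scaling moved the median of all genes, -0.08, by over 0.1 on the log2 scale.

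The labels do not say whether same-numbered libraries form pairs. Such libraries had correlations of their deviations of 0.02, 0.01 and 0.06, against -0.05 to 0.03 for differently numbered ones. With so few libraries these values cannot decide whether the samples were paired. With the replicate block the 5 calls held, with limma adjusted p of 0.0161 for JUN, 0.0169 for ATF3, 0.0235 for MAFF, 0.0406 for JUND and 0.0433 for EGR1. Without a filter FOSB had a log2 fold change of 0.24 (limma adjusted p = 0.559). The unknown depth limits FOS and FOSB most, since no counting error can be given for values near 1 TPM. With weights, libraries count unequally; the cause of the larger number of calls was not tested.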
